A study of Mus musculus with 6 samples.

Results

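The genes described here encode 40 proteins of the lysosomal membrane and its transport systems: heavily glycosylated structural proteins and tetraspanins, ion channels and chloride transporters, carriers of amino acids, peptides, sugars, nucleosides, lipids, cobalamin and iron, and small adaptor-like membrane proteins. They were chosen by name and function, with the subunits of the proton pump left out, and each was read from the probe set whose sole gene symbol is that gene. All 40 were measured, each by 1 probe set, among the 30063 genes of the array. The list is one of lysosomal function, but Npc2 is a soluble protein of the lysosome's interior, and Cd63, Slc11a2 and Tmem9 are also found on other endosomal membranes.

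Epidermal sheets of mouse embryos at E18.5, late in gestation, were compared between 3 Rptor cKO embryos and 3 wild-type littermates, 1 expression array each. Rptor cKO is a conditional knockout of Rptor, the gene of Raptor, the subunit that presents substrates to the kinase complex mTORC1. The series asks how mTORC1 and AKT bear on lysosome formation driven by the MiT/TFE transcription factors. Littermates were sorted by eye and genotyped, and the epidermis was lifted off the dermis with ammonium thiocyanate. No group received a drug or other agent, and the sources used here do not name the Cre driver, the deleted exons or any floxed allele of the wild-type embryos. The series text calls the samples biological replicates. By their Xist level, 2 of the 3 Rptor cKO arrays (replicates 1 and 3) and 0 of the 3 wild-type arrays came from female embryos.

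The lysosome breaks down proteins, lipids and sugars in an acidic interior, and its membrane keeps that interior apart from the cytosol. Lamp proteins line the inner face of the membrane as a sugar-rich coat, channels and exchangers set its ion balance, and carriers hand the products of digestion back to the cytosol. When one of these carriers fails, its cargo is stored in the lysosome, as in cystinosis or Niemann-Pick disease type C. Many of the genes carry a short promoter element, called CLEAR, which MiT/TFE factors bind, and mTORC1 at the lysosome surface holds these factors in the cytosol by phosphorylation. In epidermis, keratinocytes deliver lipids and enzymes to the skin surface through lamellar bodies, organelles related to lysosomes.

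In Rptor cKO epidermis, 5 of the 40 genes fell past the threshold of an adjusted p of 0.05 and 1 rose, by limma with Benjamini-Hochberg adjustment over all genes. Slc46a3, Mfsd8, Lamp2, Sidt2 and Ctns fell by 0.60 to 0.88 on the log2 scale, and Cd63 rose by 0.57. The share that fell was 12.5%, against 5.96% of all genes, and the share that rose was 2.5%, against 3.64%. In either direction 6 of 40 passed, against 9.60% of all genes, and the other 34 did not. All differences are Rptor cKO minus wild type in log2 units, so that a difference of 1 is a 2-fold change.

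Most of the uncalled genes also lay on the lower side. The difference was below 0 for 33 of 40 (82.5%), against 38.4% of all genes, and the median was -0.17, against 0.05 over all genes. All 3 Rptor cKO values lay below all 3 wild-type values for 18 of the 40 (45.0%), against 12.5% of all genes, and above them for the 2 genes Cd63 and Mcoln2. Either way, 20 of the 40 genes had groups that did not overlap, against 29.0% of all genes. Unadjusted p-values under 0.05 numbered 15 of 40 on the lower side, against 11.4% of all genes, and 2 on the higher, against 11.9%. With dim probe sets left out, these shares of all genes were 15.4% and 14%. The members were chosen with earlier results of these arrays known, so these shares describe the list and are no test of it.

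**Figure D1:**
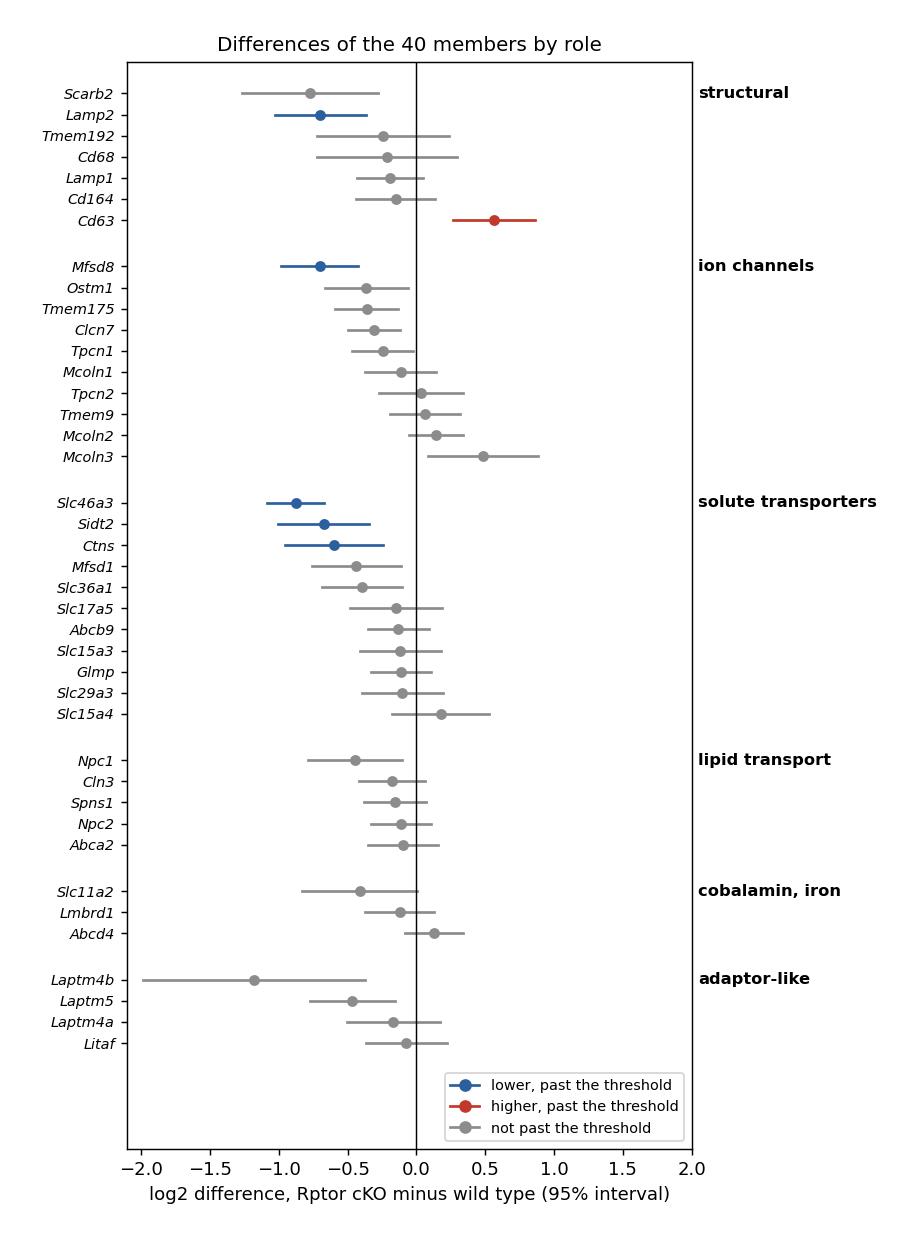
Log2 difference, Rptor cKO minus wild type, of the 40 genes in blocks by role, with 95% confidence intervals from limma over 3 and 3 arrays. Blue marks the 5 genes that fell, red the 1 that rose and grey the 34 that did not pass; 33 of the 40 points lie left of 0.

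The shift was seen on each Rptor cKO array, and it was unequal. Measured from the wild-type mean, the median of the 40 genes was -0.27 on Rptor cKO array 1, -0.22 on array 2 and -0.11 on array 3, with 32, 31 and 31 genes below 0. On wild-type arrays 4, 5 and 6 it was -0.048, -0.0068 and 0.0010. The same median over all genes ran the other way, at 0.027, 0.078 and 0.022 on the Rptor cKO arrays. Rptor cKO array 3 thus lay closest to wild type in these genes.

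**Figure D2:**
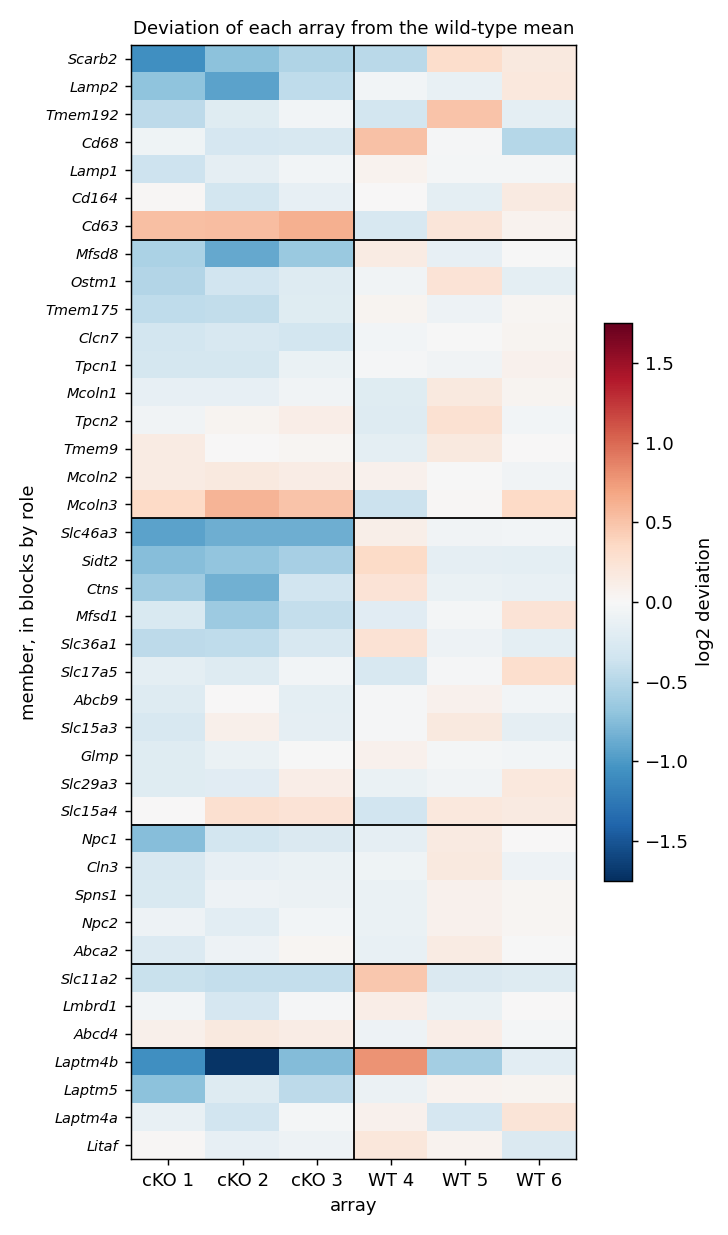
Deviation of each array from the wild-type mean, in log2 units, for the 40 genes (rows, in blocks by role) with the Rptor cKO arrays in the left 3 columns and the wild type in the right 3. Blue is below and red above the wild-type mean; Cd63 is red and Slc46a3, Mfsd8 and Lamp2 are blue on all 3 Rptor cKO arrays.

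The median over all probe sets ran from 4.08 to 4.22 on the 6 arrays. Negative control probe sets had medians from 3.81 to 4.11, and their 95 percentile reached 7.46 to 8.07, so a low value sets no sharp limit of detection. No member lay under the control median on all 6 arrays, and Mcoln2 lay under it on 1. Rptor itself measured 6.54, 6.82 and 6.72 in the Rptor cKO arrays (1, 2 and 3, an order kept for every gene) and 6.98, 7.46 and 7.0 in the wild type (4, 5 and 6). The groups did not overlap, and the difference of -0.46 (SE 0.15, limma adjusted p = 0.0988) did not pass, nor under any alternative tried. Whether its probe set covers the deleted part of the gene is unknown here, so it is a weak check of the labels.

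The promoters of the genes show which of them hold the CLEAR core. Windows from 250 bases before to 50 after the transcription start, from RefSeq on build GRCm38.p6, were found for 34 of the 40 genes; Npc1, Tpcn1, Slc11a2, Slc15a3, Abcd4 and Laptm4b have none in that table. CACGTG, which reads the same on both strands, stood in the windows of 8 of the 34 (23.5%), against 8.09% of 27025 genes. The longer TCACGTGA, which contains it, stood in 6 (17.6%) against 1.12%. GTCACGTG or its complement CACGTGAC, overlapping the same core, stood in 7 (20.6%) against 2.55%. TCACGTGA with G before it and C after it stood in 1, Cln3 (2.94%), against 0.370%. These are matches of letters, not measured binding.

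The 8 genes with the core were Mfsd1 with 5 copies, Lamp1 with 4, Mcoln1, Slc36a1, Clcn7 and Cln3 with 2 each, and Cd164 and Mcoln2 with 1. The 100 bases before the start of 5 of them are printed because they hold the densest clusters or belong to genes described below, beside Lamp2 and Slc46a3, which fell and hold no such word in the window. Capitals mark CACGTG, and each line runs 5′ to 3′ on the gene's own strand. In order, they are chr8:13159061-13159160, chr3:67582668-67582767, chr8:3500419-3500518, chr11:55204240-55204339 and chr17:25133291-25133390 on the plus strand, and chrX:38456461-38456560 and chr5:147894816-147894915 on the minus strand.
Lamp1: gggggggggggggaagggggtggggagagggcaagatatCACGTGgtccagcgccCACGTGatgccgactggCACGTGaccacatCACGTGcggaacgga
Mfsd1: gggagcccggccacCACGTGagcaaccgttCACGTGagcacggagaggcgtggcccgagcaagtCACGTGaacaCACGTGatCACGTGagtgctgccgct
Mcoln1: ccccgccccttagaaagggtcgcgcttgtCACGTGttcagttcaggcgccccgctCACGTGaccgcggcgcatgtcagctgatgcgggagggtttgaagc
Slc36a1: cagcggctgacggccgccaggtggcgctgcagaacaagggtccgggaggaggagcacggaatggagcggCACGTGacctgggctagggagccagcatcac
Clcn7: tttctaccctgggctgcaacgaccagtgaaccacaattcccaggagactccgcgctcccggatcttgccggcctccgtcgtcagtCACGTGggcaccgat
Lamp2: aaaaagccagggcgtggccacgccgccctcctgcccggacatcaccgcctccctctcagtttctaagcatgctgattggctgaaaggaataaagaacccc
Slc46a3: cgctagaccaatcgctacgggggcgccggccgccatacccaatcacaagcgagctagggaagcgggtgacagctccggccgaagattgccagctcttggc

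None of the 6 genes that passed the test held CACGTG in its window, though all 6 have one. The 8 genes that held it had a median difference of -0.18, with 7 below 0, and the 26 that did not had a median of -0.15. Mfsd1 with 5 copies differed by -0.44 and Lamp1 with 4 by -0.19, neither past the threshold. The second copy of Slc36a1 runs into the transcription start and that of Clcn7 lies after it, so both fall outside the printed stretch.

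**Figure D3:**
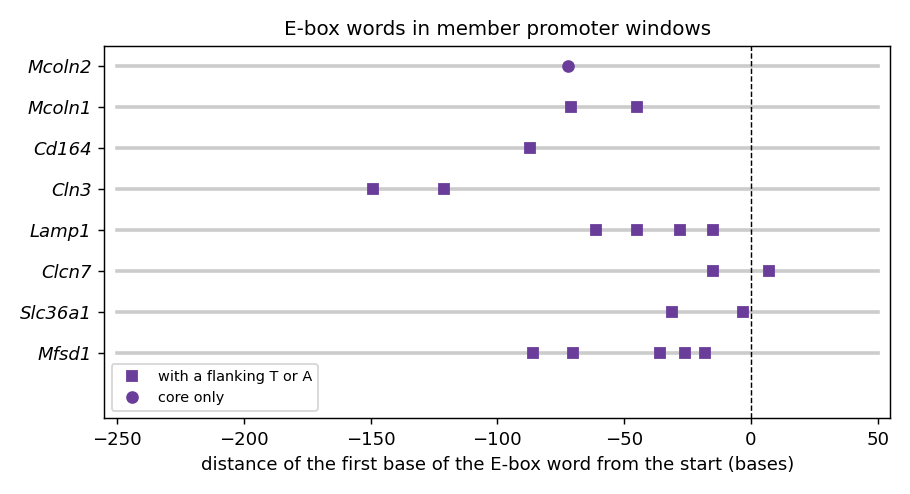
Position of CACGTG in the promoter windows of the 8 genes that hold it, as the distance in bases of its first base from the transcription start (dashed line), from 250 before to 50 after. Squares mark copies with a T before or an A after the core, circles the core alone; only Mcoln2 has the core alone.

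The 4 MiT/TFE factors themselves did not pass. Mitf differed by 0.05 (95% interval -0.42 to 0.51), Tfeb by 0.0009 (-0.23 to 0.23), Tfe3 by -0.08 (-0.30 to 0.14) and Tfec by 0.17 (-0.06 to 0.40). Tfec lay under the median of the control probe sets on all 6 arrays. The arrays measure RNA and not where these proteins are in the cell.

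Of the 7 structural glycoproteins and tetraspanins, 1 fell and 1 rose (all genes, 5.96% and 3.64%), with a median of -0.21 and 6 below 0. Lamp2 (chromosome X, 38399647 to 38456460), one of the major coat proteins of the lysosome and needed for fusion of autophagosomes with it, measured 8.36, 8.12 and 8.62 in Rptor cKO and 9.01, 8.93 and 9.25 in wild type. The groups were well apart, and Lamp2 fell by 0.70 (SE 0.14, 1.62-fold, limma adjusted p = 0.0214). Lamp1 (chromosome 8, 13159161 to 13175338), its close relative and the usual marker of lysosomes, measured 7.85, 8.04 and 8.16 in Rptor cKO and 8.27, 8.18 and 8.17 in wild type. The highest Rptor cKO value just missed the lowest wild-type value, and the difference of -0.19 (SE 0.10, 95% interval -0.43 to 0.05, limma adjusted p = 0.325) did not pass. The difference between the responses of Lamp1 and Lamp2 was not tested.

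Embryo sex as an added term removed the calls of the autosomal Cd63, Sidt2 and Ctns, and of Lamp2 on the X chromosome. Lamp2 also lost its call without some single arrays. With embryo sex as an added term its difference was -0.94 (limma adjusted p = 0.0515), and in the male arrays alone, with a single Rptor cKO array assumed to vary like the wild type, it was -0.94 (limma adjusted p = 0.0447). Without Rptor cKO array 1, Rptor cKO array 2 or wild-type array 6 its limma adjusted p was 0.0566, 0.0844 or 0.0691. Both values rest on the single male Rptor cKO array, array 2, which had the lowest Lamp2 value, so they are 1 observation and no estimate within a sex.

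Cd63 (chromosome 10, 128896231 to 128912822), a tetraspanin of late endosomes, lysosomes, exosomes and melanosomes, measured 9.29, 9.30 and 9.39 in Rptor cKO and 8.48, 8.97 and 8.83 in wild type. It rose by 0.57 (SE 0.13, 1.48-fold, limma adjusted p = 0.0317), and it was the sole gene of the 40 that rose. The Rptor cKO arrays lay close together, and the spread was in the wild type, where array 4 was lowest. The call was lost without Rptor cKO array 1, 2 or 3 (limma adjusted p = 0.0698, 0.109 and 0.0858), without wild-type array 6 (0.0687) and with embryo sex as a term (0.229). Of the markers of melanocytes, whose pigment granules carry the protein, 3 of 12 also rose. Of those of the dermis 7 of 11 rose, as given below (all genes, 3.64%). The part of these cells in the result was not tested.

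Scarb2, the receptor that carries the enzyme glucocerebrosidase to the lysosome and is known as LIMP-2, measured 5.41, 5.76 and 5.96 in Rptor cKO and 6.01, 6.79 and 6.65 in wild type. The groups did not overlap, although wild-type array 4 lay beside Rptor cKO array 3. Its difference of -0.77 (SE 0.22, 95% interval -1.27 to -0.28, limma adjusted p = 0.0631) was the lowest of the group and did not pass. With each array left out in turn it ran from -1.01 to -0.62. The fit without wild-type array 4, at -1.01 (limma adjusted p = 0.0108), was the sole one of these that passed. Cd68, a macrophage protein of the Lamp family, differed by -0.21, Tmem192 by -0.24 and the sialomucin Cd164 by -0.15, each with overlapping groups.

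**Figure D4:**
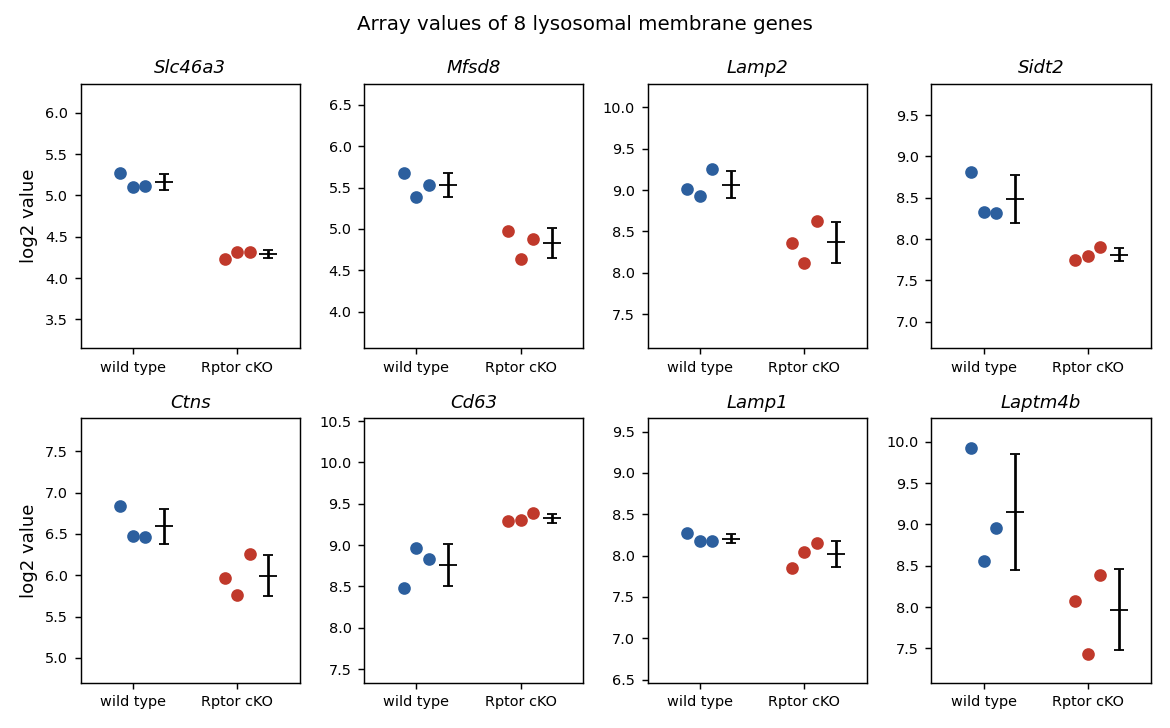
Log2 array values of 8 genes in wild type (blue, arrays 4 to 6) and Rptor cKO (red, arrays 1 to 3), with the mean and SD of 3 arrays in black; each panel spans the same number of log2 units. Slc46a3, Mfsd8, Lamp2, Sidt2 and Ctns lie lower and Cd63 higher in Rptor cKO; Lamp1 and Laptm4b did not pass.

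The 10 ion channels and chloride transporters held 1 gene that fell and 0 that rose, with a median of -0.18, 6 below 0, and unadjusted p-values under 0.05 for 5 on the lower side and 1 on the higher (all genes, 11.4% and 11.9%). Mfsd8 (chromosome 3, 40818065 to 40846880), the lysosomal membrane protein CLN7 whose loss causes a childhood neuronal ceroid lipofuscinosis, measured 4.98, 4.63 and 4.88 in Rptor cKO and 5.68, 5.39 and 5.53 in wild type. It fell by 0.70 (SE 0.12, 1.63-fold, limma adjusted p = 0.0112), with a gap between the groups. Without Rptor cKO array 2 the limma adjusted p was 0.0516.

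Clcn7 and its partner Ostm1 both lay lower, without passing. Clcn7, the exchanger of chloride for protons whose loss causes osteopetrosis, measured 6.22, 6.27 and 6.23 in Rptor cKO and 6.51, 6.54 and 6.60 in wild type. Its values were tight in both groups, and its difference of -0.31 (SE 0.084, limma adjusted p = 0.0570) missed the threshold narrowly. With each array's median subtracted it was -0.34 (limma adjusted p = 0.0402). It did not pass with any array left out. Ostm1, which stabilises Clcn7, measured 5.70, 5.88 and 5.99 in Rptor cKO and 6.16, 6.46 and 6.04 in wild type, a difference of -0.36 (limma adjusted p = 0.135) with groups that just did not overlap.

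Tmem175, a channel of the lysosome for potassium and protons, measured 5.40, 5.42 and 5.63 in Rptor cKO and 5.89, 5.76 and 5.88 in wild type. The groups did not overlap, and the difference was -0.36 (SE 0.10, limma adjusted p = 0.0604). Of the pair of two-pore channels, Tpcn1 differed by -0.24 (limma adjusted p = 0.172), with groups apart, and Tpcn2 by 0.03, with overlapping groups.

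The mucolipins, cation channels that release calcium from endosomes and lysosomes, did not lie on one side. Mcoln1, the widely expressed member, measured 6.68, 6.67 and 6.75 in Rptor cKO and 6.61, 6.98 and 6.86 in wild type, a difference of -0.11 (95% interval -0.37 to 0.14) that did not pass. Mcoln3 measured 6.44, 6.68 and 6.58 in Rptor cKO and 5.71, 6.11 and 6.44 in wild type. Wild-type array 6 overlapped the Rptor cKO arrays, and the difference of 0.48 (SE 0.17, limma adjusted p = 0.135) did not pass. With each array left out in turn it ran from 0.30 to 0.66. The fit without wild-type array 6, at 0.66 (limma adjusted p = 0.0489), was the sole one of these that passed. Mcoln2 differed by 0.15 at values near the control median, and Tmem9 by 0.06.

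Among the 11 carriers of amino acids, peptides, sugars and nucleosides with their partners, 3 fell and 0 rose, 10 lay below 0 and the median was -0.15; 5 had an unadjusted p under 0.05 on the lower side and 0 on the higher (all genes, 11.4% and 11.9%). Slc46a3 (chromosome 5, 147875897 to 147894861), a lysosomal carrier of the SLC46 family, gave the smallest p of all 40 genes. It measured 4.23, 4.31 and 4.32 in Rptor cKO and 5.27, 5.10 and 5.12 in wild type, with no overlap and the smallest SE of the genes that passed. It fell by 0.88 (SE 0.091, 1.84-fold, 95% interval -1.09 to -0.67, limma adjusted p = 0.00195). Its Rptor cKO values lay just above the medians of the control probe sets. The call held without each array in turn and with sex as a term. With sex as a term, as in the male arrays alone, the difference rests on Rptor cKO array 2, the single male of its group. These settings are therefore no separate checks and no estimate within a sex.

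Sidt2 (chromosome 9, 45937857 to 45958000), a lysosomal membrane protein of the SID-1 family linked to uptake of nucleic acids, measured 7.75, 7.79 and 7.90 in Rptor cKO and 8.82, 8.33 and 8.32 in wild type. It fell by 0.67 (SE 0.14, 1.6-fold, limma adjusted p = 0.0237), and wild-type array 4 was the highest by a wide margin. The call was lost without Rptor cKO array 1 or 2 (limma adjusted p = 0.0685 and 0.0980), with sex as a term (0.170) and in the male arrays alone (0.192).

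Ctns (chromosome 11, 73183133 to 73199115) encodes cystinosin, which exports cystine together with protons and is lost in cystinosis. It measured 5.97, 5.76 and 6.26 in Rptor cKO and 6.84, 6.48 and 6.46 in wild type. It fell by 0.60 (SE 0.16, 1.51-fold, limma adjusted p = 0.0483), and Rptor cKO array 3 came near the wild type. The call lay at the threshold, and of the 6 fits that left out an array 1 kept it, the one without Rptor cKO array 3. Without the other arrays the limma adjusted p was 0.0713 to 0.174. The call was also lost with each array's median subtracted, by quantile normalization and with array quality weights (limma adjusted p = 0.0543, 0.0778 and 0.0589).

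Mfsd1 is a carrier of dipeptides, and Glmp is the glycoprotein that protects it. Mfsd1 measured 6.22, 5.86 and 6.08 in Rptor cKO and 6.29, 6.45 and 6.72 in wild type; the groups did not overlap, and the difference of -0.44 (SE 0.14, limma adjusted p = 0.0996) did not pass. Glmp differed by -0.11, with overlapping groups. Slc36a1, which moves small amino acids out with protons, measured 6.16, 6.16 and 6.33 in Rptor cKO and 6.87, 6.52 and 6.45 in wild type. Its difference was -0.39 (SE 0.13, limma adjusted p = 0.0997), and its groups did not overlap.

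The remaining carriers had overlapping groups and differences from -0.15 to 0.18. They were Slc17a5 (sialic acid, -0.15), Abcb9 (peptides, -0.13), Slc15a3 (-0.12) and Slc15a4 (0.18), both of histidine and peptides, and Slc29a3 (nucleosides, -0.10).

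None of the 5 genes of cholesterol and lipid transport passed the test, although all 5 lay below 0, with a median of -0.16. By limma, 1 had an unadjusted p under 0.05, on the lower side (all genes, 11.4%). Npc1, which passes cholesterol out of the lysosome and is lost in Niemann-Pick disease type C, measured 6.24, 6.67 and 6.74 in Rptor cKO and 6.83, 7.15 and 7.0 in wild type. The groups did not overlap, and the difference was -0.44 (SE 0.15, limma adjusted p = 0.110). Npc2, the soluble carrier that hands cholesterol to Npc1, differed by -0.11 (95% interval -0.33 to 0.11), with overlapping groups. Cln3, lost in juvenile neuronal ceroid lipofuscinosis, measured 6.09, 6.22 and 6.25 in Rptor cKO and 6.29, 6.53 and 6.27 in wild type, a difference of -0.18 (SE 0.11, limma adjusted p = 0.370). Spns1, which exports lysophospholipids, differed by -0.16, and Abca2 by -0.10.

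The 3 genes of cobalamin and iron transport had a median of -0.12. By limma 0 passed and 0 had an unadjusted p under 0.05 on either side (all genes, 11.4% lower and 11.9% higher). Slc11a2, the carrier of divalent metals that moves iron out of endosomes, measured 6.39, 6.36 and 6.37 in Rptor cKO and 7.25, 6.54 and 6.57 in wild type. The Rptor cKO values were nearly equal and lay below the wild type, where array 4 stood high; the difference was -0.41 (SE 0.18, limma adjusted p = 0.220). Abcd4 and Lmbrd1 work together in moving cobalamin out of the lysosome. Abcd4 measured 5.48, 5.58 and 5.53 in Rptor cKO and 5.32, 5.52 and 5.37 in wild type, an overlapping difference of 0.13 (SE 0.093, limma adjusted p = 0.466), and Lmbrd1 differed by -0.12.

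The 4 adaptor-like small membrane proteins all lay below 0, with a median of -0.32. By limma 0 passed and 2 had an unadjusted p under 0.05, both on the lower side (all genes, 11.4%). Laptm4b, a lysosomal protein with links to sphingolipids and to trafficking of EGFR, had the lowest difference of all 40 genes. It measured 8.08, 7.44 and 8.39 in Rptor cKO and 9.93, 8.56 and 8.96 in wild type. The groups did not overlap but were wide, and the difference of -1.18 (SE 0.35, 95% interval -1.99 to -0.37, limma adjusted p = 0.0783) did not pass. With each array left out in turn it ran from -1.47 to -0.79. The fit without wild-type array 5, at -1.47 (limma adjusted p = 0.0413), was the sole one of these that passed. Its relative Laptm4a differed by -0.17 (95% interval -0.51 to 0.17).

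Laptm5, the member of that family found in blood cells, measured 5.18, 5.69 and 5.45 in Rptor cKO and 5.80, 5.96 and 5.96 in wild type. The groups did not overlap, and the difference was -0.47 (SE 0.13, limma adjusted p = 0.0691). Litaf, a small membrane protein of late endosomes, differed by -0.07, with overlapping groups.

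Of the 34 genes that did not pass, 20 had a 95% confidence interval within 0.5 of no difference in either direction. Scarb2 and Laptm4b were the 2 whose interval reached a fall of 1 or more. For the rest, these arrays leave room for a change of moderate size.

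Another 74 genes with links to the lysosomal membrane, none of them among the 40 and with the proton pump left out, were listed as a comparison. The list is broad and holds proteins that lie mainly elsewhere, such as Slc7a5, so its shares do not describe the lysosomal membrane alone. Of the 74 genes 66 were measured, and they are called the other lysosomal genes below. Of these, 16 fell (24.2%, against 5.96% of all genes) and 3 rose (4.55%, against 3.64%), 43 lay below 0, and the median was -0.12. Slc38a9, the arginine sensor of the lysosome that acts on mTORC1, fell by 1.09 (limma adjusted p = 0.00427). Slc31a2 and Slc31a1, carriers of copper, fell by 0.78 and 0.69, and Tmem63a, a mechanically gated channel, fell by 0.90 (limma adjusted p = 0.00508, 0.00716 and 0.00817). Slc7a5, a carrier of large amino acids that lies mainly at the cell surface, rose by 1.04, Slc29a1, of nucleosides, by 0.60 and Slc12a4, a cotransporter of potassium and chloride, by 0.50 (limma adjusted p = 0.0176, 0.0141 and 0.0120). All 3 of these rises lost their call without Rptor cKO array 2 (limma adjusted p = 0.0772, 0.0574 and 0.0635) and with embryo sex as a term (0.153, 0.160 and 0.0739), and Slc7a5 also without wild-type array 6 (0.0549). Tmem63a lost its call with sex as a term (limma adjusted p = 0.0766). Groups did not overlap for 33 of the 66 (50%, against 29.0% of all genes), 27 of them on the lower side (40.9%, against 12.5%). The shares of the 40 and of the 66 were not tested against each other.

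Markers of the cells in an epidermal sheet were read on the same arrays. Some of each list but the erythroid one passed the test, and the part of these cells in the results was not tested. Of all genes 5.96% fell and 3.64% rose, so a single call in a short list says little about that list. Sums of linear signal weigh the brightest genes of a list most. All 16 keratinocyte markers lay over the control median on every array, as the tissue label says; 9 fell and 2 rose, and their summed linear signal was 14090 to 23990 in Rptor cKO and 31010 to 38710 in wild type. Krtdap, a gene of differentiating keratinocytes, fell by 1.97, and Itgb4, an integrin of the basal layer, rose by 0.98. Chosen after their values were seen, the suprabasal genes Krt1, Krt10, Flg and Ivl differed by -2.07, -1.76, -2.57 and -1.90, each past the threshold. The basal genes Krt5, Krt14 and Trp63, chosen in the same way, differed by 0.04, 0.26 and 0.02 and did not pass. In the rest of the list, Lor, Dsc3, Lgals7 and Perp differed by -1.47, -0.93, -0.50 and -0.44, each past the threshold. Dsg3 rose by 0.70, and Sfn (0.22) and Itga6 (0.29) did not pass. In such bulk tissue, fewer cells of a type and less RNA per cell cannot be told apart.

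Cd68, Laptm5 and Slc15a3, as genes of blood-derived cells, are set beside 21 markers of Langerhans cells and macrophages. Of these markers 6 fell and 0 rose by limma (all genes, 5.96% and 3.64%), with a median of -0.18. Itgam fell by 0.76 and Csf1r by 0.64; their list summed to 764 to 1025 in Rptor cKO and 979.6 to 1159 in wild type, which overlap. Epcam, the brightest of the list in Rptor cKO, lay above 0 and did not pass. None of the 21 lay under the control median on all 6 arrays. The 10 T-cell markers held 1 that fell (Cd3g, by 0.51) and 0 that rose, near the shares of all genes. They summed to 253.5 to 273 against 273.4 to 323.4.

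Markers of melanocytes and of the dermis are set beside Cd63 and Mcoln3. Of all genes 3.64% rose and 5.96% fell. Of 12 melanocyte markers 3 rose and 0 fell by limma, among them Slc24a5 by 0.62 and Mlph by 0.52. Their sums overlapped, at 1739 to 2529 against 1198 to 1876. Of 11 markers of fibroblasts and dermis 7 rose and 0 fell, among them Sparc by 0.88 and Dcn by 0.94, with sums of 1794 to 2083 against 1291 to 1362. Hair follicle markers summed to 3870 to 5211 against 2721 to 3414, with 2 of 10 higher (Edar by 1.08 and Krt17 by 0.77). Krt17 was the brightest of the 10 on every array and weighs most in these sums. Mast cell markers summed to 167.5 to 370.7 against 125.7 to 159.1, with 1 of 8 higher (Tpsb2, by 0.77), and 1 of 9 endothelial markers rose (Pecam1, by 0.53), with overlapping sums of 171.3 to 189.8 against 144.9 to 176.3. Merkel cell markers summed to 272.6 to 334.7 against 394.6 to 657.6, with 2 of 8 lower (Atoh1 by 0.68 and Chga by 1.69) and 1 higher. Chga was the brightest of the 8 on every array and weighs most in these sums. The median difference of the 8 was -0.09, with 4 below 0, so the sums do not show that the whole list lay lower. By limma 0 of 4 erythroid markers passed.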

How the data were processed

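Total RNA of 6 epidermal sheets was labelled with the Ambion Expression WT kit and measured on expression arrays, per the labels' protocols. The deposited values are log2 signals per probe set, taken as such because they run from 1.34 to 14.04; RMA, Partek and mm10 are named, with no versions, in the submitters' processing notes. RMA forces arrays toward 1 distribution, hides a general change of RNA per cell and compresses dim signals. The sources used here give no slide or scan date, so no array batch was tested.

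Of 72688 probe sets, 6918 were control or unmapped, 30604 named 1 gene, 2146 several and 33020 none, by the platform's annotation, with 1135 symbols updated through RefSeq. Where several probe sets named a gene (429 genes), the brightest on average over the 6 arrays stood for it, giving 30063 genes. Coordinates are those of GRCm38.p6, the assembly of mm10.

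Groups were compared by limma 3.58.1 (lmFit, eBayes; R 4.3.3) over all 6 arrays, with no term besides group, two-sided, no filter and Benjamini-Hochberg adjustment over all genes (threshold 0.05; 4.31 prior degrees of freedom). A permutation of 3 against 3 arrays cannot go below p = 0.1. SE is the moderated standard error. The number of arrays limits the precision. The fit was tested on simulated data. Python 3.11.15, pandas 2.3.3 and matplotlib 3.10.9 served for annotation and plots.

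The members and lists were chosen with earlier results of these data known. Values per array are given for genes past the threshold, Lamp1 and Lamp2, and in each role the 2 uncalled genes with the smallest p. Differences alone are given for up to 4 other lysosomal genes past the threshold in each direction. They are also given for the 2 genes of each marker list with the smallest p and for the whole keratinocyte list. Ostm1, Mcoln1 and Mcoln3 were added after their values were seen, as partner or family of genes described. A planned description of protein sequences was not made, and protein sequences were not used here. Alternatives covered normalization, each array left out, dim probe sets, embryo sex, array weights and the variance prior.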

Additional observations from a re-analysis of the deposited data

How the results depend on the processing

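The 5 genes that fell became 1 to 5 when each array was left out in turn (2 without Rptor cKO array 1, 1 without array 2 and 3 without wild-type array 6), and the 1 that rose became 0 to 1. With embryo sex as a term 2 fell and 0 rose by limma, and in male arrays alone 3 fell and 0 rose; unadjusted p-values under 0.05 then numbered 8 lower and 1 higher (all genes, 8.25% and 8.94%), and 9 lower and 1 higher (8.19% and 8.25%). Both sex settings rest on the single male Rptor cKO array, array 2, so they are no estimate within a sex. With array medians subtracted 5 fell, with Clcn7 called and Ctns not. Quantile normalization and array quality weights each left 4 that fell, without Ctns. A trended robust prior left 0 that rose (2 at an unadjusted p under 0.05, against 11.9% of all genes). Without limma's variance moderation 0 fell and 0 rose, with 9 lower and 2 higher at an unadjusted p under 0.05 (all genes, 8.85% and 10.4%). At a threshold of 0.1 12 fell and 1 rose, and at 0.01 1 fell and 0 rose. The shares of all genes at these thresholds were not counted, so these numbers cannot be set against a background. Slc46a3 lost its call only without moderation (adjusted p = 0.0741; 0.000611 to 0.0741 over 15 alternatives).

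The 66 other lysosomal genes gave 4 to 17 that fell and 0 to 3 that rose with an array left out, 3 and 0 with sex as a term, 4 and 1 in male arrays, and 0 and 0 without moderation (21 and 4 at an unadjusted p under 0.05). All genes gave 623 to 1629 that fell and 277 to 853 that rose with an array left out, 441 and 202 with sex as a term, 625 and 242 in male arrays, and 2 and 6 without moderation. Fits with fewer arrays or an added term have fewer residual degrees of freedom.

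The median of the 40 genes stayed between -0.22 and -0.11 over these settings. Subtracting array medians moved the median of all genes to 0.017, a shift of -0.03. Quantile normalization moved the median of structural genes to -0.11 and of adaptor-like genes to -0.22. With sex as a term or in male arrays the median of solute carriers was -0.23 and of cobalamin and iron genes -0.29. Leaving out an array in turn, the ranges were -0.32 to -0.16 for structural genes, -0.27 to -0.14 for solute carriers, -0.21 to -0.092 for lipid transport (the latter without wild-type array 5), -0.18 to -0.038 for the 3 cobalamin and iron genes (-0.038 for Rptor cKO array 2 left out, -0.064 for wild-type array 4) and -0.19 to -0.10 for the other lysosomal genes. The cause of these moves was not tested.

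Changes of sign were seen in 9 genes, none of them past the threshold in either fit: Slc15a3 to 0.0888 and Abcb9 to 0.0002 with sex as a term and in male arrays, Laptm4a to 0.0028 and Litaf to 0.0699 by quantile normalization, and others as arrays were left out. In that last case Tpcn2 ran from -0.0769 (wild-type array 4; -0.0063 for Rptor cKO array 3) to 0.17, Slc17a5 from -0.29 to 0.0024 (wild-type array 6), Tmem192 from -0.40 to 0.0060 (wild-type array 5), and, with the change of sign for wild-type array 4, Litaf from -0.20 to 0.0273, Cd68 from -0.46 to 0.0446 and Tmem9 from -0.0231 to 0.15. No paired analysis was made, because the labels give no litter for any embryo and the groups share no replicate number. Any pairing of littermates could therefore not be taken into account. Probe sets near the control median have little signal over background, which limits Mcoln2 most.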
